A study of Mus musculus with 2 samples.

Results

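The Slit ligands and the Robo, Dcc and Unc5 receptors were followed through the cell classes of the embryonic mouse cortex. The 10 genes were taken by symbol from the 32285 genes of the count tables. They are Slit1, Slit2 and Slit3, Robo1 and Robo2, Dcc, and Unc5a, Unc5b, Unc5c and Unc5d. Single-cell RNA sequencing (10x Genomics 3' chemistry, version 3.1) was carried out on dissociated dorsal telencephalon of mouse embryos at E16.5. The embryos belong to a series on the loss of Dot1l, a histone methyltransferase gene, in cells that express Cre from the Emx1 locus, which is active in the dorsal forebrain lineage. Only the 2 wild-type (WT) libraries were used, WT replicate 1 and WT replicate 6, and the knockout was not analysed here. All values are therefore levels in WT cells, and the comparisons are between cell classes.

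Slits are secreted proteins that bind Robo receptors on migrating cells and growing axons and mostly repel them. Dcc and the Unc5 receptors bind netrins. Dcc is best known for attraction, and Unc5 proteins for repulsion, alone or with Dcc. In the cortex Dcc, Robo and Unc5 receptors are known for roles in neuronal migration and in the growth of callosal and subcortical axons. Unc5d also binds Flrt proteins and marks the multipolar cells of the subventricular zone. Robo2 and Robo1 act in progenitors as well.

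Cells with 1500 to 60000 UMIs (unique molecular identifiers, each standing for a captured mRNA molecule) and under 10% mitochondrial UMIs were kept. These were 8139 cells of WT replicate 1 and 8209 of WT replicate 6. Gates on summed marker UMIs, with no gene of the Slit, Robo, Dcc and Unc5 group among the markers, placed 6878 of the 16348 cells in 9 neural classes. These were radial glial cells (RGCs, 880 cells), intermediate progenitor cells (IPCs, 746), newborn excitatory neurons (954), upper-layer neurons (1217), layer 5-gated (L5, 331) and layer 6-gated (L6, 425) deep-layer neurons, interneurons of the medial (MGE, 1127) and caudal (CGE, 375) ganglionic eminence, and striatal neurons (823). A further 1758 cells fell into 8 other classes, and 7712 cells (47.2%) passed no gate.

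Each class was checked against the markers of its gate, which the gate itself used. Radial glial markers summed to 11485 and 13208 CPM (UMIs of a gene scaled to the same total of 1000000 UMIs in each class and library, in WT replicate 1 and WT replicate 6, the order used throughout) in RGCs and to 771 and 734 in IPCs. Intermediate progenitor markers summed to 1977 and 2007 CPM in IPCs and 277 and 276 in newborn neurons. Upper-layer markers summed to 4971 and 5199.7 CPM in upper-layer neurons and 723 and 785 in L6-gated neurons. Layer 6 markers summed to 5797 and 6189.6 CPM in L6-gated against 681 and 660.0 in L5-gated neurons. The layer 5 markers did not separate these groups, at 1430.5 and 1447 CPM in L5-gated and 1685 and 1649 in L6-gated neurons. The L5 gate thus holds excitatory neurons that are low in layer 6 markers, with Bcl11b at 713 and Fezf2 at 115 CPM (means). Layer 5 markers summed to 77.6 and 81.4 CPM in upper-layer neurons. L5-gated cells made up at most 55.1% of the gated cells of any Leiden cluster (cells grouped by similar expression), and none was named L5. Below, deep-layer neurons are the cells of the L5 and L6 gates, and their laminar position was not tested. Striatal neurons carried Ebf1 at 3503 CPM and Rarb at 921, although the tissue was dissected as dorsal telencephalon, and Drd1 was at 6.29.

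The libraries held 74930397 and 68964234 UMIs over all cells, and the median kept cell had 6924 and 6664. Median UMIs per cell in the 9 classes ran from 2768.5 in CGE interneurons to 9357 in L5-gated neurons. Their summed counts were correlated at r = 0.997 across genes on the log2 scale. The libraries shared 26 cell barcodes among the kept cells. Nothing in the labels says how many embryos a library holds, and the p-values rest on 2 libraries per class. The variance in edgeR is moderated across genes. Its p-values and standard errors therefore do not measure a gene's own spread between these libraries. Erythroid cells and microglia, which should not use these receptors, gave the background of free RNA. In erythroid cells these were 50.5 and 32.5 CPM of Dcc, 58.2 and 45.3 of Robo2, 81.3 and 32.5 of Robo1 and 22.0 and 20.5 of Unc5d. In microglia they were 49.7 and 45.8, 58.0 and 99.0, 114 and 115 and 11.6 and 44.0 CPM in the same order.

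Most of these genes are long. In the GRCm38.p6 annotation Robo1 (chr16:72027518-73047491, 1020.0 kb) and Robo2 (chr16:73891976-75447443, 1555 kb) lie near each other on chromosome 16. Dcc spans 1098 kb, Slit3 (chr11:35121456-35708507) 587 kb and Unc5d (chr8:28646717-29219671) 573 kb. Slit2 (chr5:47981291-48307735), Unc5c (chr3:141465564-141834924) and Slit1 (chr19:41597824-41747275) span 326, 369 and 149 kb. Unc5b (chr10:60762594-60831581) and Unc5a (chr13:54945151-55006018) are the shortest, at 69.0 and 60.9 kb. The share of intronic reads in the counts is not given in the sources used here and would raise long genes, so each gene was compared only with itself between classes.

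**Figure D1:**
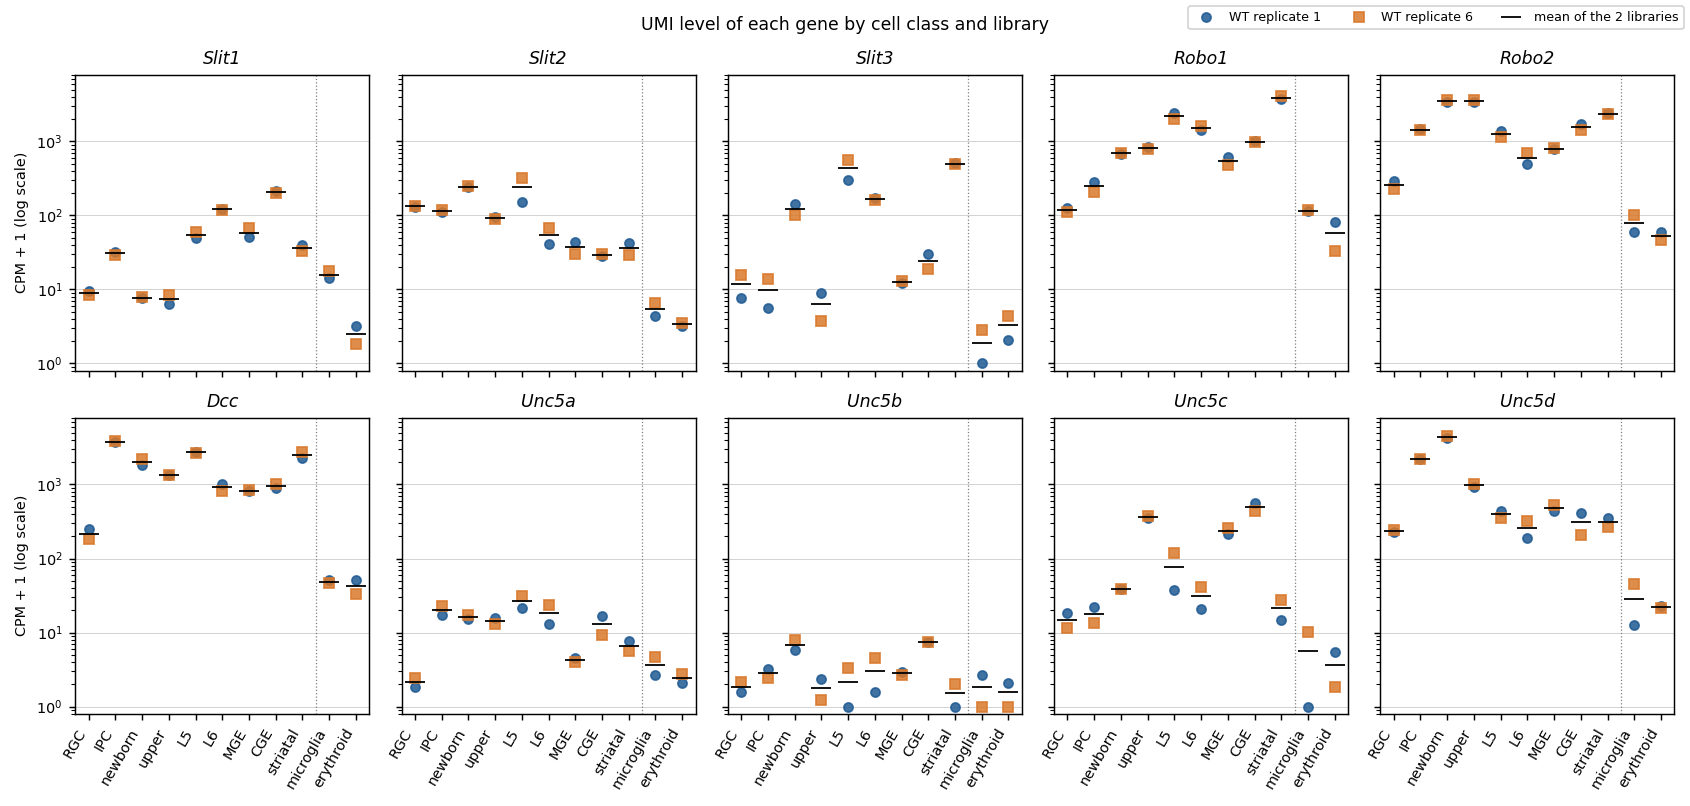
Levels of the 10 genes, one panel per gene, as CPM + 1 on a log axis, in the 9 neural classes and, right of the dotted line, in microglia and erythroid cells, which give the background of free RNA. Circles are WT replicate 1, squares WT replicate 6 and dashes their mean. Unc5d peaks in newborn neurons, Dcc in IPCs, Robo1 in striatal neurons, Robo2 in newborn and upper-layer neurons, and Unc5b stays under 10 CPM in all 9 classes.

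Robo1 was lowest in RGCs and highest in striatal and deep-layer neurons. Its level was 126 and 109 CPM in RGCs, 285 and 207 in IPCs, 674 and 698 in newborn and 847 and 781 in upper-layer neurons. It reached 1415 and 1602 CPM in L6-gated and 2384 and 2006 in L5-gated neurons, and 3684 and 4040.0 in striatal neurons. MGE interneurons had 606 and 476 CPM and CGE interneurons 996 and 979. No neighbours in this order of 9 classes overlapped between the libraries. The level in RGCs lay at that of microglia.

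Robo1 was higher at each of the 3 steps of the excitatory lineage, from RGCs to upper-layer neurons, but the first and last of these depended on the processing. All differences are on the log2 scale, first class minus second. Newborn neurons exceeded IPCs by 1.55 ± 0.14 (SE, here and below; edgeR adjusted p = 3.27e-05). Deep-layer neurons, the sum of the L5 and L6 gates, exceeded newborn neurons by 1.44 ± 0.081 (adjusted p = 2.17e-06) and upper-layer neurons by 1.16 ± 0.081 (adjusted p = 8e-06). The step from newborn to upper-layer neurons was 0.28 ± 0.077 (adjusted p = 0.0249), and its call was lost without WT replicate 1, at 0.18 (adjusted p = 0.676), without WT replicate 6, at 0.36 (adjusted p = 0.334), and in DESeq2, at 0.28 (adjusted p = 0.0795). IPCs exceeded RGCs by 1.14 ± 0.15 (adjusted p = 0.000203). That difference was -0.011 (adjusted p = 0.967) when cells with UMIs of cycling markers were left out, and -0.91 (adjusted p = 0.0054) between Leiden clusters, so its direction depended on how the progenitors were taken. Cycling markers summed to 1680.1 and 1726 CPM in RGCs and 1154 and 838 in IPCs.

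Among GABAergic cells, Robo1 was higher in striatal neurons than in interneurons by 2.59 ± 0.11 (adjusted p = 5.19e-10) and lower in MGE than in CGE interneurons, with a difference of -0.89 ± 0.13 (adjusted p = 0.00225). Interneurons and newborn excitatory neurons differed by -0.13 ± 0.10 (adjusted p = 0.355) and did not pass. L5-gated neurons exceeded L6-gated neurons by 0.49 ± 0.12 (adjusted p = 0.0436). That call was lost without WT replicate 1, at 0.26 (adjusted p = 0.575), with likely doublets left out, at 0.36 (adjusted p = 0.165), and in DESeq2, at 0.49 (adjusted p = 0.153).

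Robo2 followed another order, with its plateau in newborn and upper-layer neurons. Its level was 289 and 227 CPM in RGCs, 1451 and 1435 in IPCs, 3388 and 3629.8 in newborn and 3437 and 3649 in upper-layer neurons. The upper-layer and newborn values overlapped, and the difference of 0.047 ± 0.058 did not pass (adjusted p = 0.613). It became 0.31 (adjusted p = 0.00383) when the lower limits of the gates were doubled, an alternative chosen after seeing the data. In deep-layer neurons Robo2 was lower, at 1359 and 1130.0 CPM in L5-gated and 495 and 687 in L6-gated neurons.

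The largest Robo2 step in the excitatory lineage lay between RGCs and IPCs, at 2.56 ± 0.13 (edgeR adjusted p = 3.02e-07), followed by 1.36 ± 0.083 from IPCs to newborn neurons (adjusted p = 3.03e-06). Deep-layer neurons were below newborn neurons with a difference of -1.94 ± 0.077 (adjusted p = 3.03e-07) and below upper-layer neurons with a difference of -1.99 ± 0.068 (adjusted p = 1.17e-07). Within the deep layers the L5-gated neurons were higher, by 1.02 ± 0.16 (adjusted p = 0.00423). Striatal neurons had 2382 and 2312 CPM, above interneurons by 1.27 ± 0.094 (adjusted p = 1.71e-07). CGE interneurons had 1702 and 1443 and MGE interneurons 793 and 801 CPM, a difference of -1.0 ± 0.11 (adjusted p = 0.000349). Between the Leiden clusters of these interneurons it was -0.033 (adjusted p = 0.953). A cluster led by Grm8 and Pbx3, with Robo2 at 3940.0 and 3975 CPM, carried no class name and was not in that comparison. CGE was its most common gate, at 11.2% of its cells.

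Upper-layer and deep-layer neurons differed in opposite directions for the Robo genes, with Robo1 higher and Robo2 lower in the deep layers. The log2 ratio of Robo1 to Robo2 UMIs shows the shift within each library. It was -2.35 and -2.79 in IPCs, -2.33 and -2.38 in newborn and -2.02 and -2.22 in upper-layer neurons. It was 0.81 and 0.83 in L5-gated, 1.51 and 1.22 in L6-gated and 0.63 and 0.81 in striatal neurons. Interneurons lay between, at -0.39 and -0.75 in MGE and -0.77 and -0.56 in CGE cells. Because gene length enters such a ratio, only its change between classes can be read, not its sign.

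**Figure D2:**
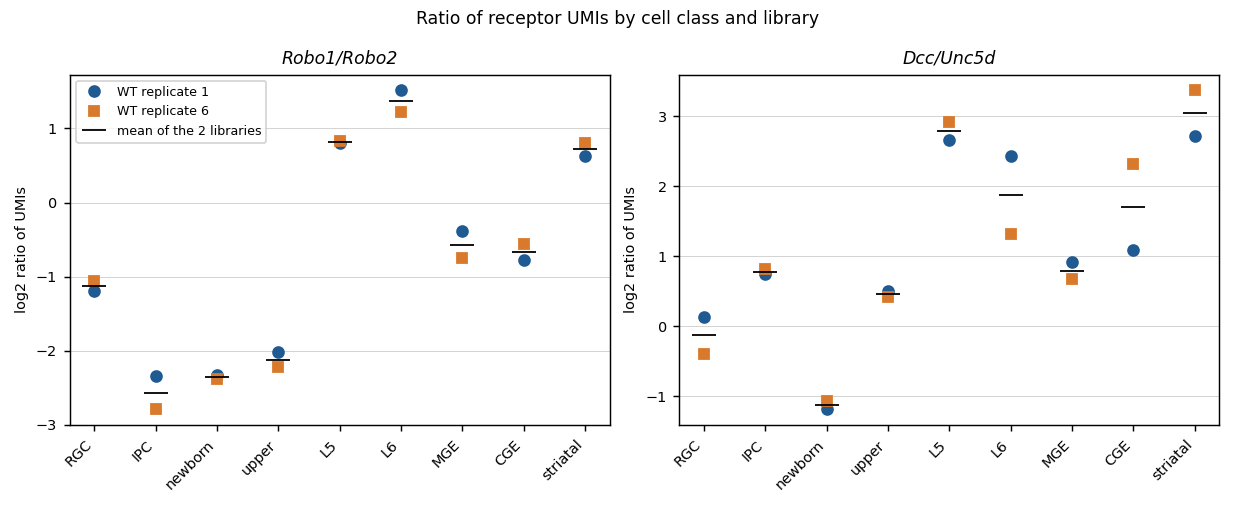
Log2 ratios of Robo1 to Robo2 UMIs (left) and of Dcc to Unc5d UMIs (right) in the 9 neural classes. Circles are WT replicate 1, squares WT replicate 6 and dashes their mean. In every class the libraries lie closer together than the distance between the upper-layer neurons and the L5-gated, L6-gated or striatal neurons in the left panel, and newborn neurons have the lowest Dcc to Unc5d ratio in the right panel.

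Dcc, the netrin receptor, rose from a low level in RGCs to its highest in IPCs. Its level was 246 and 183 CPM in RGCs and 3713 and 3873 in IPCs. It was lower in newborn neurons, at 1857 and 2190.2 CPM, and lower again in upper-layer neurons, at 1332 and 1359. L5-gated neurons had 2748 and 2676 CPM and overlapped with striatal neurons at 2310.0 and 2735. L6-gated neurons had 1011 and 808 CPM and overlapped with CGE and MGE interneurons at 886 and 1018 and 812 and 836.

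The step from RGCs to IPCs was 4.22 ± 0.15 on the log2 scale (edgeR adjusted p = 3.83e-08). Dcc then fell by 0.83 ± 0.095 from IPCs to newborn neurons (adjusted p = 0.000131) and fell by 0.56 ± 0.08 from newborn to upper-layer neurons (adjusted p = 0.000627). The latter was -0.45 (adjusted p = 0.154) without WT replicate 6. Dcc separated the deep-layer groups, with L5-gated above L6-gated neurons by 1.52 ± 0.13 (adjusted p = 0.000133). Striatal neurons exceeded interneurons by 1.55 ± 0.10 (adjusted p = 5.07e-08). Interneurons were below newborn excitatory neurons with a difference of -1.27 ± 0.094 (adjusted p = 3.39e-06), and MGE and CGE interneurons differed by -0.23 ± 0.11, which did not pass (adjusted p = 0.382).

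Dcc in all deep-layer neurons depended on how these were taken. Against newborn neurons the difference was -0.18 ± 0.10 (adjusted p = 0.172). It was called once library entered the model as a block (the replicate block), at -0.18 (adjusted p = 0.0479). Leaving out likely doublets gave -0.29 (adjusted p = 0.0329), doubled gate limits -0.32 (adjusted p = 0.0235) and Leiden clusters -0.99 (adjusted p = 5.48e-05). Against upper-layer neurons it was 0.37 ± 0.076 (adjusted p = 0.00815). This call was lost without WT replicate 1, at 0.27 (adjusted p = 0.46), without WT replicate 6, at 0.42 (adjusted p = 0.211), and with doubled gate limits, at 0.10 (adjusted p = 0.503). Between Leiden clusters, where no cluster was named L5 and the deep layers are the L6 cluster alone, the direction turned, at -0.42 (adjusted p = 0.0275).

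Unc5d had its highest level in newborn neurons and fell sharply in the cortical layers. It stood at 224 and 239.8 CPM in RGCs, 2213 and 2197 in IPCs and 4219.8 and 4575 in newborn neurons. Upper-layer neurons had 934 and 1019 CPM, L5-gated 433 and 353 and L6-gated 187 and 324. MGE, L5-gated, CGE, striatal and L6-gated neurons followed each other with overlapping values, between 187 and 521 CPM, and RGCs overlapped with the last of them.

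From RGCs to IPCs Unc5d rose by 3.33 ± 0.10 (edgeR adjusted p = 2.86e-08), and from IPCs to newborn neurons by 1.07 ± 0.082 (adjusted p = 1.11e-05). Upper-layer neurons were below newborn neurons with a difference of -2.14 ± 0.067 (adjusted p = 1.96e-08) and so were deep-layer neurons, with -3.75 ± 0.092 (adjusted p = 6.3e-08). Deep-layer neurons were also below upper-layer neurons with a difference of -1.62 ± 0.091 (adjusted p = 1.86e-06). Interneurons were below newborn excitatory neurons with a difference of -3.34 ± 0.085 (adjusted p = 3.15e-09). Striatal neurons were slightly below interneurons, at -0.53 ± 0.13 (adjusted p = 0.00836), which was -0.30 without WT replicate 6. With cells holding cycling marker UMIs left out it was -0.36 (adjusted p = 0.0841). Between Leiden clusters it was 0.16 (adjusted p = 0.428).

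Unc5d did not separate L5-gated from L6-gated neurons in the main test, at 0.57 ± 0.22 (adjusted p = 0.186), but did under the replicate block, at 0.59 (adjusted p = 1.28e-05). It was larger and called without WT replicate 6, at 1.17 (adjusted p = 0.000203), and with doubled gate limits, at 1.48 (adjusted p = 0.00141). MGE and CGE interneurons differed by 0.59 ± 0.25 (adjusted p = 0.276). This difference passed without WT replicate 1, at 1.38 (adjusted p = 0.000106), and with cells holding cycling marker UMIs left out, at 1.12 (adjusted p = 0.00106). The CGE values of the libraries were 414 and 204 CPM, farther apart than the MGE values of 431 and 521.

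Dcc and Unc5d peaked at successive stages. The log2 ratio of Dcc to Unc5d UMIs was 0.75 and 0.82 in IPCs, -1.18 and -1.06 in newborn neurons and 0.51 and 0.42 in upper-layer neurons. In L5-gated and striatal neurons it was 2.66 and 2.92 and 2.72 and 3.37. Many single cells held both. With each cell thinned to 2000 UMIs, 65.1% and 70.1% of IPCs and 63.6% and 64.6% of newborn neurons had a UMI of each gene. The product of the single shares was 62.3% and 68.1% and 64.7% and 65.4% in the same order. In L5-gated neurons 24.8% and 25.4% had both, against products of 25.2% and 23.5%. In striatal neurons 11.8% and 8.36% had both, below the products of 16.0% and 13.2% in both libraries, a difference that was not tested.

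Within the IPCs, cells were also split by cycling markers, into those with at least 15 marker UMIs per 10000 and those with none. Dcc had 3177 and 2605 CPM in cycling and 4277 and 4752 in non-cycling IPCs. Unc5d had 1315 and 1085 and 3165 and 2811 CPM, and Robo2 871 and 786 and 1870.4 and 1731. All 3 receptors were lower in the cycling IPCs of both libraries. Robo1 was 309 ± 69.9 CPM in cycling and 188 ± 16.6 in non-cycling IPCs (mean ± SD, n = 2), the other way round. Among RGCs, Robo1 was 104 and 69.9 CPM in cycling and 212 and 175 in non-cycling cells. These splits rest on 61 and 56 cycling IPCs and were not tested.

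Unc5c was highest in cells gated as CGE interneurons and in upper-layer neurons, though the CGE level depended on how these cells were taken. Its level was 17.5 and 10.4 CPM in RGCs, 20.8 and 12.4 in IPCs and 37.9 and 37.8 in newborn neurons. It was 349 and 377 CPM in upper-layer neurons, 213 and 258 in MGE and 557 and 438 in CGE interneurons. Cajal-Retzius cells, the Reln-expressing neurons of the marginal zone, had 419 and 331 CPM. Striatal neurons had 13.8 and 26.5 CPM, which overlapped with the progenitors.

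Unc5c rose from newborn to upper-layer neurons by 3.29 ± 0.087 (edgeR adjusted p = 1.23e-08). It was higher in interneurons than in newborn excitatory neurons by 2.93 ± 0.088 (adjusted p = 5.26e-09) and lower in striatal neurons than in interneurons, with a difference of -3.91 ± 0.18 (adjusted p = 1.29e-09). Deep-layer neurons were below upper-layer neurons with a difference of -2.81 ± 0.32 (adjusted p = 0.00022). L5-gated neurons had 36.0 and 117 and L6-gated neurons 19.8 and 40.8 CPM, and the difference of 1.28 ± 0.47 missed the threshold (adjusted p = 0.159), but was called under the replicate block, at 1.26 (adjusted p = 2.06e-10), without WT replicate 1, at 1.45 (adjusted p = 0.00673), and with likely doublets left out, at 1.91 (adjusted p = 0.0305). Deep-layer and newborn neurons differed by 0.49 ± 0.36 (adjusted p = 0.332), which was 1.0 (adjusted p = 0.017) without WT replicate 1. From IPCs to newborn neurons Unc5c rose by 1.26 ± 0.21 (adjusted p = 0.00135), which was 0.95 (adjusted p = 0.226) without WT replicate 6 and 0.91 (adjusted p = 0.128) with doubled gate limits.

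The order of MGE and CGE interneurons in Unc5c was not stable. MGE interneurons were below CGE interneurons with a difference of -1.10 ± 0.15 (adjusted p = 0.00115). The call was lost without WT replicate 1, at -0.74 (adjusted p = 0.526), and without WT replicate 6, at -1.39 (adjusted p = 0.0655). Between the Leiden clusters of MGE and CGE cells the direction turned, at 1.84 (adjusted p = 7.03e-06). The cluster with the highest Unc5c level carried no class name and was not in that comparison. Its leading genes were Grm8, Pbx3, C79798, Adarb2, Tshz1 and Sdk2. CGE was its most common gate, at 11.2% of its cells, so the CGE-gated levels include cells of this cluster.

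Unc5a and Unc5b were sparse in the neural classes. Unc5a had 0.846 and 1.40 CPM in RGCs, 16.1 and 21.9 in IPCs and 14.4 and 16.5 in newborn neurons. L5-gated neurons, IPCs, L6-gated, newborn, upper-layer neurons and CGE interneurons overlapped in sequence, between 8.14 and 30.4 CPM. The change from RGCs, with 3 and 5 UMIs in all, to IPCs was 4.11 ± 0.37 (edgeR adjusted p = 1.37e-05). Interneurons were below newborn neurons with a difference of -1.59 ± 0.28 (adjusted p = 0.00158), a call lost without WT replicate 6, at -1.24 (adjusted p = 0.0606). In the other 7 comparisons Unc5a did not pass. Under the replicate block Unc5a was called between deep and upper-layer neurons, at 0.66 (adjusted p = 0.0215), and between MGE and CGE interneurons, at -1.89 (adjusted p = 0.0321). The former was also called without WT replicate 1, at 1.10 (adjusted p = 0.0322), and the latter between Leiden clusters, at -2.16 (adjusted p = 0.0181).

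Unc5b was highest outside the 9 neural classes. It was 125 and 129 CPM in endothelial cells, 98.7 and 112 in mural cells and 102 and 109 in Cajal-Retzius cells. Unc5b is known as the netrin receptor of blood vessels. In newborn neurons it had 4.89 and 6.88 CPM and in CGE interneurons 6.51 and 6.52. Only 10.7% of its 963 UMIs in kept cells lay in the 9 neural classes and 56.6% in the other 8 classes, against 44.8% and 0.659% for Unc5d. Newborn neurons, with 17 and 28 UMIs, were above IPCs by 1.76 ± 0.42 (edgeR adjusted p = 0.00929), with 2.33 (adjusted p = 0.107) without WT replicate 1 and 1.23 (adjusted p = 0.42) without WT replicate 6. They were also above upper-layer neurons, with 6 and 1 UMIs, where the difference was -2.86 ± 0.57 (adjusted p = 0.00453) and -1.77 (adjusted p = 0.33) without WT replicate 6. Against interneurons the difference was -1.08 ± 0.38 (adjusted p = 0.0463). This call was lost without WT replicate 1, at -1.38 (adjusted p = 0.309), without WT replicate 6, at -0.75 (adjusted p = 0.621), and in DESeq2, at -1.07 (adjusted p = 0.305). Deep-layer and newborn neurons differed by -1.76 ± 0.61 (adjusted p = 0.0521), and by -1.79 (adjusted p = 0.0144) under the replicate block. Without WT replicate 6 this was -3.88 (adjusted p = 0.0397), and between Leiden clusters -2.38 (adjusted p = 0.00432). MGE and CGE interneurons differed by -1.81 ± 0.61 (adjusted p = 0.149), and by -3.41 (adjusted p = 0.00154) between clusters.

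The 3 Slit ligands peaked in different classes, although L5-gated neurons were high in both Slit2 and Slit3. Slit1 was 214 and 199 CPM in CGE interneurons, 123 and 118 in L6-gated neurons and 49.3 and 65.6 in MGE interneurons, the last overlapping with 48.9 and 57.9 in L5-gated neurons. It was 6.61 and 6.88 CPM in newborn and 5.26 and 7.44 in upper-layer neurons, below the 13.2 and 16.5 of microglia. Progenitors of the ganglionic eminence had 165 and 156 CPM and cortical RGCs 8.46 and 7.30.

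In the excitatory lineage Slit1 was raised in IPCs over RGCs by 1.99 ± 0.20 (edgeR adjusted p = 3.09e-05) and fell by 2.06 ± 0.20 in newborn neurons (adjusted p = 4.2e-05). Deep-layer neurons exceeded upper-layer neurons by 3.80 ± 0.15 (adjusted p = 2.23e-07) and newborn neurons by 3.75 ± 0.14 (adjusted p = 2.33e-07). Within the deep layers Slit1 was lower in L5-gated than in L6-gated neurons, with a difference of -1.22 ± 0.14 (adjusted p = 0.000689). Upper-layer and newborn neurons differed by -0.049 ± 0.29, which did not pass (adjusted p = 0.93), while the Leiden clusters gave 1.28 (adjusted p = 0.00402). Interneurons exceeded newborn neurons by 3.70 ± 0.15 (adjusted p = 3.15e-08), MGE interneurons were below CGE interneurons with a difference of -1.87 ± 0.16 (adjusted p = 3.58e-05), and striatal neurons were below interneurons with a difference of -1.34 ± 0.14 (adjusted p = 4.6e-06).

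Slit2 was present from progenitors onwards and was highest in newborn and L5-gated neurons. RGCs had 128 and 134 CPM, IPCs 109 and 119, newborn neurons 239 and 247 and upper-layer neurons 92.9 and 89.5. L5-gated neurons had 153 and 322 CPM, a wide spread that enclosed the newborn values. L6-gated, MGE, striatal and CGE neurons overlapped in sequence between 27.3 and 67.2 CPM. Slit2 did not pass between IPCs and RGCs, at -0.12 ± 0.10 (edgeR adjusted p = 0.327). It rose by 1.17 ± 0.081 in newborn neurons (adjusted p = 6.16e-06) and fell by 1.38 ± 0.074 in upper-layer neurons (adjusted p = 5.33e-07). L5-gated neurons exceeded L6-gated neurons by 2.09 ± 0.32 (adjusted p = 0.00355), and interneurons were below newborn neurons with a difference of -2.84 ± 0.13 (adjusted p = 7.99e-08).

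The deep-layer values of Slit2 differed between the libraries. Against newborn neurons the difference of -0.78 ± 0.24 passed (adjusted p = 0.0347), but was -0.42 (adjusted p = 0.0951) without WT replicate 1 and -0.78 (adjusted p = 0.283) in DESeq2. Against upper-layer neurons the difference of 0.60 ± 0.24 did not pass (adjusted p = 0.133). It was 1.02 (adjusted p = 0.000796) without WT replicate 1. It was called under the replicate block, at 0.58 (adjusted p = 0.000816), and turned between Leiden clusters, at -2.42 (adjusted p = 0.000248). The deep layers are the L6 cluster alone there, and L6-gated neurons, at 40.2 and 67.2 CPM, were also below upper-layer neurons, at 92.9 and 89.5. Slit2 did not separate MGE from CGE interneurons, at 0.33 ± 0.29 (adjusted p = 0.677), or striatal neurons from interneurons, at 0.023 ± 0.21 (adjusted p = 0.958), although the latter was 0.56 (adjusted p = 0.0174) between Leiden clusters.

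Slit3 was highest in striatal and L5-gated neurons and low in progenitors, MGE interneurons and the upper layers. It was 503 and 491 CPM in striatal neurons, 304 and 564 in L5-gated and 170.1 and 158 in L6-gated neurons. Newborn neurons had 143 and 101 CPM and upper-layer neurons 8.01 and 2.76. RGCs, IPCs and MGE interneurons lay between 4.65 and 14.6 CPM and overlapped in sequence with the upper-layer neurons. Few cells carried this signal: 86.6% of all Slit3 UMIs lay in the 5% of kept cells with the most of them, and the highest cell held 148. In newborn neurons 4.86% ± 0.39 (SD, n = 2) of cells had a UMI after thinning, against 26.1% ± 3.7 of L5-gated and 24.6% ± 0.26 of striatal neurons. Before thinning these shares were 7.34%, 35.6% and 29.2%.

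Slit3 gave the largest deep-to-upper difference of the 10 genes, 5.75 ± 0.31 (edgeR adjusted p = 1.47e-06), and the largest between striatal neurons and interneurons, 5.11 ± 0.13 (adjusted p = 9.1e-12). It rose by 3.87 ± 0.31 from IPCs to newborn neurons (adjusted p = 1.33e-05) and fell by 4.48 ± 0.30 to upper-layer neurons (adjusted p = 2.29e-06). Between Leiden clusters both steps were lost, at 0.0022 (adjusted p = 0.996) and 0.033 (adjusted p = 0.903). Interneurons were below newborn neurons with a difference of -3.12 ± 0.20 (adjusted p = 1.28e-06), which turned to 0.51 (adjusted p = 0.0494) between clusters. Deep-layer neurons exceeded newborn neurons by 1.28 ± 0.20 (adjusted p = 0.00127) and L5-gated exceeded L6-gated neurons by 1.35 ± 0.24 (adjusted p = 0.00737). Without WT replicate 6 these were 0.71 (adjusted p = 0.111) and 0.79 (adjusted p = 0.277). IPCs and RGCs differed by -0.22 ± 0.46 (adjusted p = 0.739) and MGE and CGE interneurons by -1.06 ± 0.34 (adjusted p = 0.12), neither past the threshold. Between Leiden clusters the former was called, at -1.13 (adjusted p = 0.0265).

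**Figure D3:**
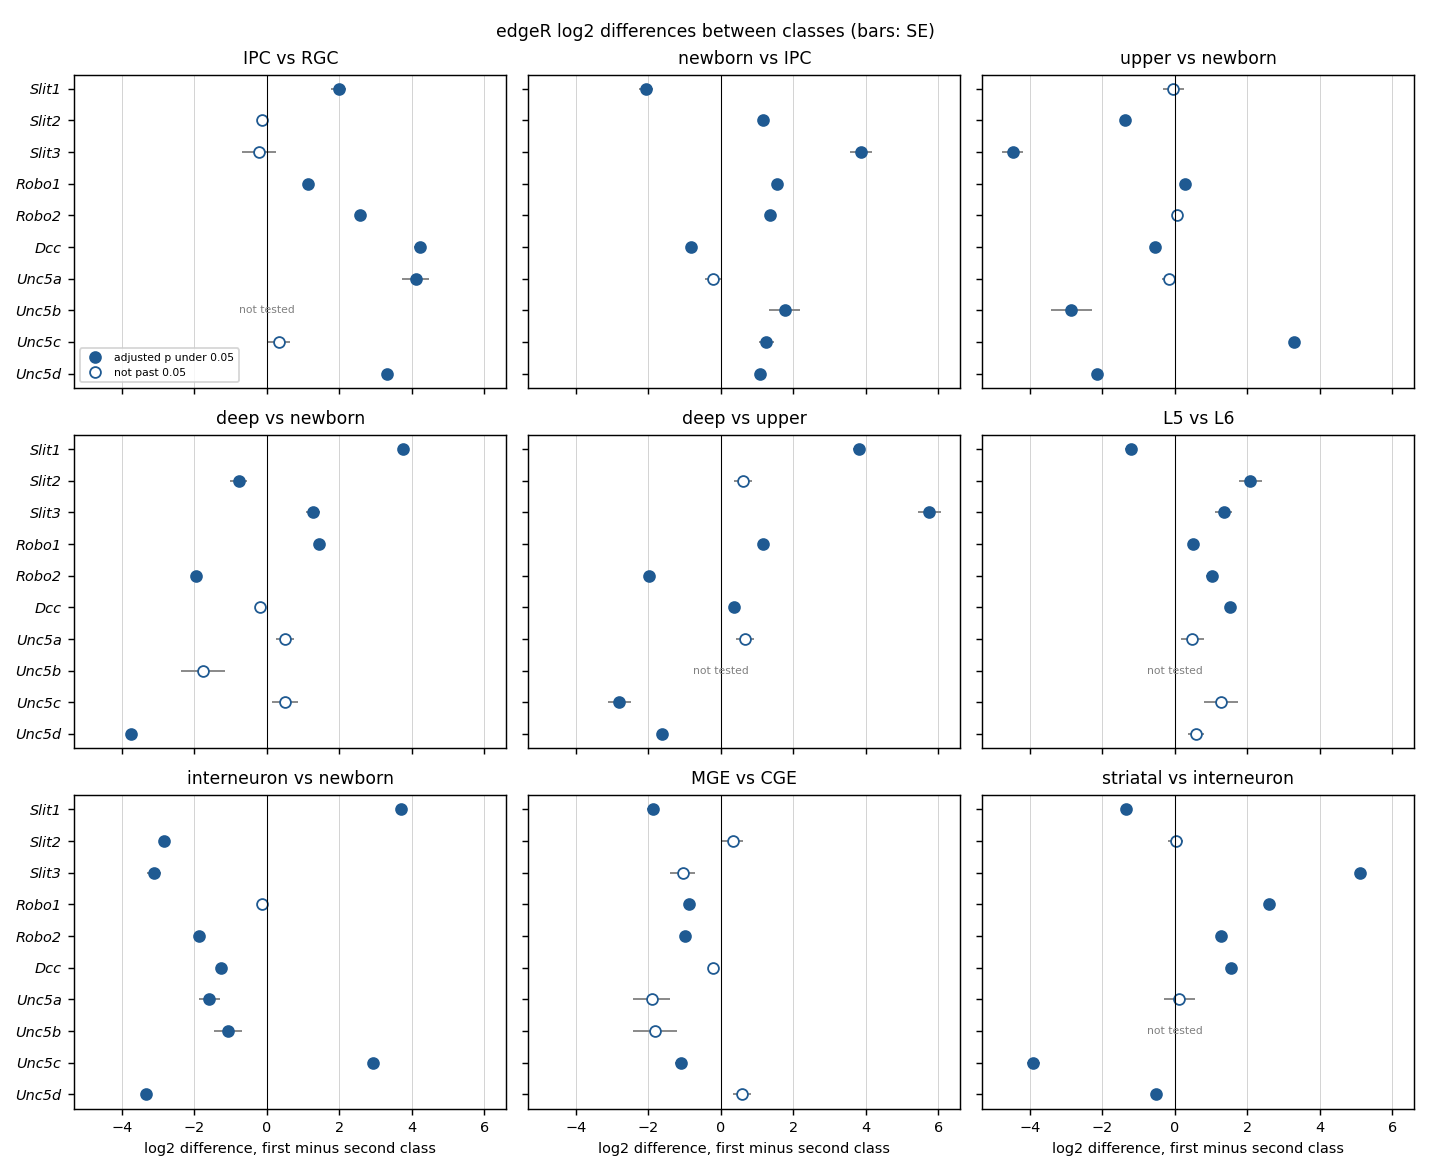
Log2 differences of the 10 genes in the 9 comparisons, first class minus second, from edgeR's quasi-likelihood test on UMI sums of 2 libraries per class. Bars are standard errors, filled points have an adjusted p under 0.05, and genes whose counts were too low are marked as not tested. Robo1 and Slit3 lie to the right and Robo2 and Unc5d to the left in the comparison of deep with upper-layer neurons.

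The shares of cells with a UMI, at 2000 UMIs per cell, were highest for Unc5d, Dcc, Robo2 and Robo1 in the classes where their levels were highest. The order was not the same throughout. Robo1 was detected in 67.1% ± 2.2 of upper-layer and 60.4% ± 0.18 of L6-gated neurons (SD, n = 2), where the levels ran the other way, so no order is read from these. Unc5d was detected in 93.0% ± 0.35 of newborn neurons, 74.0% ± 4.4 of IPCs and 51.5% ± 1.8 of upper-layer neurons. Dcc was detected in 88.0% ± 0.33 of IPCs and 19.8% ± 2.4 of RGCs. Robo2 was detected in 96.6% ± 1.1 of upper-layer and 41.7% ± 1.6 of L6-gated neurons, and Robo1 in 87.3% ± 0.49 of striatal neurons and 26.0% ± 2.8 of IPCs. Before thinning the values for Unc5d in newborn neurons, Dcc in IPCs, Robo2 in upper-layer and Robo1 in striatal neurons were 96.2%, 94.6%, 99.5% and 91.7%. Erythroid cells, with a median of 3032 and 3626 UMIs, gave 6.13% ± 0.59 for Dcc, 6.73% ± 1.4 for Robo1, 4.76% ± 0 for Robo2 and 1.61% ± 0.25 for Unc5d.

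Counted together, the 7 receptor genes gave a mean of 0.941 ± 0.062 detected receptors per thinned RGC (SD, n = 2). The mean was 2.57 ± 0.055 per IPC, 3.13 ± 0.0041 per newborn and 3.20 ± 0.015 per upper-layer neuron. It was 2.61 ± 0.11 per L5-gated, 1.71 ± 0.093 per L6-gated and 2.56 ± 0.034 per striatal neuron, 1.69 ± 0.066 per MGE and 1.88 ± 0.22 per CGE interneuron. Erythroid cells had 0.203 ± 0.024. Robo1 and Robo2 were seen together in 73.0% and 69.5% of striatal and 66.2% and 63.6% of upper-layer neurons, and in 20.2% and 19.8% of IPCs. The products of the single shares were 69.8% and 66.4%, 65.7% and 63.8%, and 16.9% and 15.8% in the same order. Slit3 and its receptor Robo1 were seen together in 21.4% and 20.5% of striatal and 19.5% and 20.4% of L5-gated neurons, where the product of the shares was 21.2% and 21.7% and 20.7% and 22.7%.

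**Figure D4:**
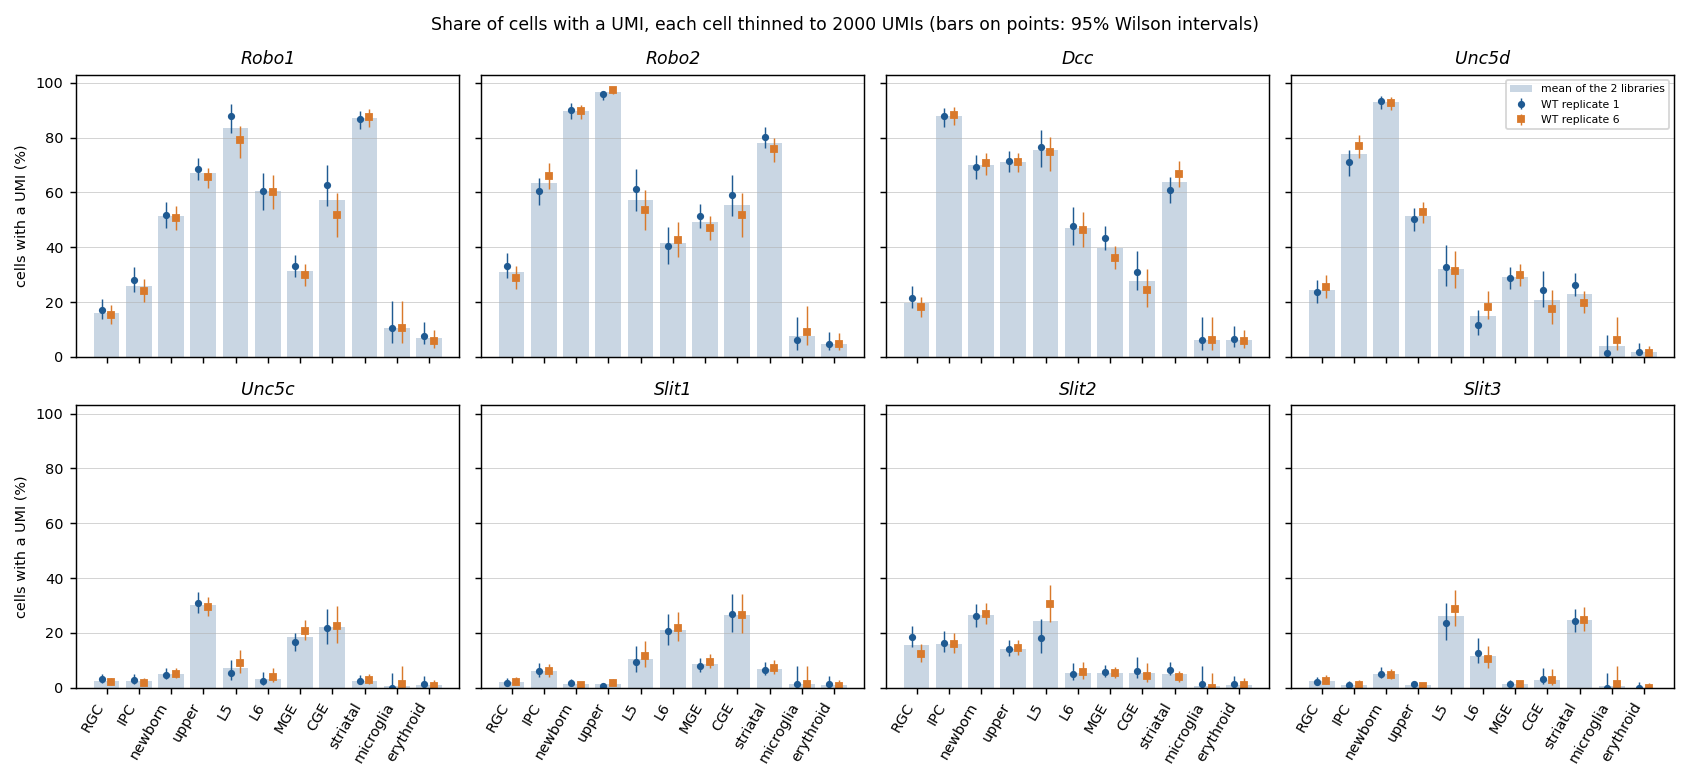
Percent of cells with at least 1 UMI of 8 of the genes in the 9 neural classes, microglia and erythroid cells, with each cell thinned to 2000 UMIs. Columns are the mean of the 2 libraries, circles WT replicate 1 and squares WT replicate 6, with 95% Wilson intervals that cover counting error only. Robo2 in upper-layer and Unc5d in newborn neurons exceed 90%, while no Slit exceeds 30.4% in any of these classes or libraries.

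Read by comparison, the most calls, 9 of 10 genes each, were made between newborn neurons and IPCs and between interneurons and newborn neurons. Counts too low for the test left out Unc5b between IPCs and RGCs, deep and upper-layer neurons, L5-gated and L6-gated neurons, and striatal neurons and interneurons. In IPCs against RGCs, 6 of 9 tested genes were higher and 0 lower, against 20.2% and 23.5% of all genes tested. In newborn neurons against IPCs, 7 of 10 were higher and 2 lower, against 17.9% and 19.5%. The median log2 difference of the tested members was 1.99 and 1.21 in these comparisons. That of all genes was within 0.01 of 0 in all 9, where TMM scaling places the bulk of genes. In upper-layer against newborn neurons 2 of 10 were higher and 5 lower (11.9% and 12% of all genes). This count fell from 7 to 4 without WT replicate 6. In deep-layer against newborn neurons 3 were higher and 3 lower of 10 (18.9% and 14.8%).

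Deep-layer against upper-layer neurons gave 4 higher and 3 lower of 9 tested members, against 11.3% and 6.04% of all genes. L5-gated against L6-gated neurons gave 5 higher and 1 lower of 9, in a comparison where 3.16% and 4.08% of all genes were called. Interneurons against newborn excitatory neurons gave 2 higher and 7 lower of 10 (21.1% and 19.0%). Free haemoglobin RNA moved with that comparison, with erythroid markers at 2949.5 and 3673 CPM in MGE and 3442 and 4456 in CGE interneurons against 1621 and 1993 in newborn neurons, and its part in the result was not tested. MGE against CGE interneurons gave 0 higher and 4 lower of 10 (2.49% and 3.77%). Striatal neurons against interneurons gave 4 higher and 3 lower of 9 (10.1% and 10.6%).

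Another 43 genes of the same pathways (netrins, other receptors and ligands, and intracellular partners) were counted beside them, and their counts can be set against the shares of all genes given above. From RGCs to IPCs, 14 of 39 tested were higher and 13 lower. Ntn1, which encodes netrin-1, was 59.8 and 64.6 CPM in RGCs and 5.20 and 6.63 in IPCs, a difference of -3.32 ± 0.18 (edgeR adjusted p = 4.18e-07). Rgma, a ligand of the Dcc relative neogenin, fell by 3.36 ± 0.16 (adjusted p = 1.82e-07). Dscam, another netrin receptor, was 12.7 and 7.02 CPM in RGCs and 104 and 94.2 in IPCs and rose by 3.40 ± 0.20 (adjusted p = 7.26e-07). Dscam moved in the same direction as Dcc at this step, and Ntn1 in the opposite one.

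From IPCs to newborn neurons 21 of 40 pathway genes were higher and 8 lower, 29 in all and 19 without WT replicate 6. Srgap1, whose protein binds Robo receptors inside the cell, rose from 47.6 and 49.0 to 206 and 224 CPM (edgeR adjusted p = 4.28e-07). Flrt3, which encodes an Unc5 ligand, rose by 1.64 ± 0.15 (adjusted p = 2.85e-05). It rose again by 1.53 ± 0.091 in upper-layer neurons, where 11 of 39 pathway genes were higher and 8 lower (adjusted p = 1.12e-06). Those 19 calls were 12 without WT replicate 1 and 11 without WT replicate 6. Myo10, an unconventional myosin that carries netrin receptors, fell by 3.77 ± 0.15 from IPCs to newborn neurons (adjusted p = 4.28e-07).

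Deep-layer against newborn neurons had 11 of 39 pathway genes higher and 6 lower, and deep against upper-layer neurons 8 higher and 6 lower of 39. The latter 14 were 9 without WT replicate 6. Flrt2, another Unc5 ligand gene, was 449 and 518 CPM in L6-gated and 268 and 218 in L5-gated neurons, and deep-layer neurons exceeded newborn neurons by 2.29 ± 0.10 (edgeR adjusted p = 5.31e-07). Flrt3 was lower in deep than in upper-layer neurons, with a difference of -1.34 ± 0.11 (adjusted p = 3e-05). Between L5-gated and L6-gated neurons 5 of 37 were higher and 4 lower, 9 in all, 5 without WT replicate 6 and 16 under the replicate block. Neo1, the neogenin gene and a relative of Dcc, was higher in the L5-gated neurons by 1.28 ± 0.19 (adjusted p = 0.00311), the same direction as Dcc.

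Among the GABAergic classes, 15 of 40 pathway genes were higher and 8 lower in interneurons than in newborn excitatory neurons. MGE against CGE interneurons had 1 of 39 higher, which was Flrt2, and 7 lower, a count of 8 that was 3 without WT replicate 1 and 5 without WT replicate 6. Striatal neurons against interneurons had 11 of 40 higher and 6 lower. Ntn1 was 70.6 and 65.8 CPM in striatal neurons, above interneurons by 2.44 ± 0.20 (edgeR adjusted p = 4.44e-07). Srgap1 was 542 and 548 CPM there, higher by 1.42 ± 0.10 (adjusted p = 1.1e-07), in the same direction as Robo1 and Robo2. Ntn4, another netrin gene, was lower in striatal neurons than in interneurons, at -3.86 ± 0.32 (adjusted p = 5.54e-07).

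The patterns over the 9 classes were also set beside those of all genes with at least 20 CPM in a class, as a description over 9 points that share 2 libraries. Highest for Robo1 was Cacna1h (r = 0.980), a T-type calcium channel gene, followed by Lin7a (r = 0.979). Robo2 was most like Ptprs (r = 0.969), a receptor tyrosine phosphatase gene, and Unc5d most like Tac2 (r = 0.943). Dcc was most like Shf (r = 0.925) and Caprin1 (r = 0.915), Slit1 like Cntn4 (r = 0.934), Slit2 like Kcnn3 (r = 0.945) and Slit3 like Xpr1 (r = 0.930). Unc5a was most like Arfgef3 (r = 0.942) and Unc5c like Gak (r = 0.897), the lowest of these values.

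Cells that passed no gate held much of the signal, from 32.7% of the Unc5b UMIs to 68.3% of the Slit3 UMIs in kept cells. Levels were also taken in Leiden clusters of all kept cells, gated or not, formed with these genes and the pathway genes left out. These levels do not give the share of the ungated UMIs in each cluster. The highest Dcc level was 9933 and 10707 CPM in a cluster of 288 cells led by Astn2, Cntn4 and Nr3c2, which also held 3646 and 2878 CPM of Robo1. Its most common gate was L5, at 15.3% of its cells. A cluster of 308 cells led by Cntnap5b, Isl1 and Dchs2 had 8168 and 8857 CPM of Dcc and the highest Robo1 level, 7259 and 8150.4 CPM. Its most common gate was striatal, at 37.3% of its cells. Slit2 was highest, at 838 and 732 CPM, in 648 cells led by Tafa1, Sphkap and Lingo2, with Tfap2d among the leading genes. Slit3 was highest, at 2009 and 1819 CPM, in 329 cells led by Gm32647, Slit3 itself and Crym. L5 was again the most common gate, at 10.6% of the cells. Unc5c reached 948 and 829.6 CPM in 695 cells led by Grm8, Pbx3 and C79798, and the same cells had 3940.0 and 3975 CPM of Robo2. The highest Robo2 level, 4248 and 4494 CPM, lay in a cluster of 1547 cells whose most common gate was upper-layer (35.4% of its cells), and the highest Unc5d level, 5721 and 5801 CPM, in a cluster of 1112 cells, 44.6% of them gated as newborn neurons.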

How the data were processed

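The authors generated single-cell libraries with the 10x Genomics 3' kit (version 3.1), and the submitters' processing notes name Cell Ranger 7.0.0 and the mm10 build. The deposited files hold raw UMI counts per gene and cell for 2 WT libraries. The counting of intronic reads is not given in the sources used here. The knockout was not analysed here.

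Cells were retained between 1500 and 60000 UMIs, with mitochondrial genes below 10% (scanpy 1.11.5, Python 3.11.15) and gated into classes by summed UMIs of marker genes. Likely doublets by a Scrublet score (1777 kept cells, 305 in the 9 neural classes) stayed in and were left out in an alternative. Counts were summed per library and class. Each comparison was fitted on its own classes with edgeR 4.0.16 (R 4.3.3), using TMM scaling, filterByExpr and the quasi-likelihood test, with Benjamini-Hochberg adjustment over all genes tested and a threshold of 0.05. Shares of cells with a UMI were taken after thinning each cell to 2000 UMIs, which left out shallower cells, and their Wilson intervals cover counting error only. CPM are counts scaled to a class total of 1000000 UMIs.

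The classes compared share their libraries and are paired by them. Same-library deviations were correlated at r = 0.213 to 0.322 across genes in the 9 comparisons. A model with library as block was among the alternatives (replicate block). Others were DESeq2 1.42.0, no TMM scaling, no filter on low counts, all neural classes in 1 fit and a stricter cell filter. Likely doublets, or cells with any UMI of a cycling marker, were left out in further alternatives. The last were Leiden clusters (named by their most common gate), doubled gate limits (chosen after seeing the data) and each replicate left out. The scripts were tested on simulated data.

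All 10 genes are described. Of 43 pathway genes, up to 3 per direction with the largest called change may be named per comparison, and for each member up to 3 genes with the most similar pattern over the classes. The genes, lists and gates were chosen with earlier results of these data known. Leading genes of Leiden clusters, and the cluster levels, are descriptions chosen after the values were seen.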

Additional observations from a re-analysis of the deposited data

How the results depend on the processing

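Of 1012 member values recomputed under the alternatives, 924 kept their direction and side of the threshold, 39 were no longer called, 40 were newly called and 9 turned. A change of sign where neither value was called was counted among the 924. Taking Leiden clusters in place of gates turned 8 of the 9, and the cause was not tested. There the difference was -0.91 for Robo1 between IPCs and RGCs, 1.28 for Slit1 and 0.033 for Slit3 between upper-layer and newborn neurons, and -2.42 for Slit2 and -0.42 for Dcc between deep and upper-layer neurons. It was 0.51 for Slit3 between interneurons and newborn neurons, 1.84 for Unc5c between MGE and CGE interneurons and 0.16 for Unc5d between striatal neurons and interneurons. Leaving out cells with cycling marker UMIs gave -0.011 for Robo1 between IPCs and RGCs. With no cluster named L5, all deep-layer values between clusters are those of the L6 cluster alone. L5-gated and L6-gated neurons could not be compared there.

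With the library as a replicate block, the calls among the 10 genes were 6, 9, 7, 8, 9, 8, 9, 5 and 7 in the 9 comparisons (IPC with RGC, newborn with IPC, upper with newborn, deep with newborn, deep with upper, L5 with L6, interneuron with newborn, MGE with CGE, striatal with interneuron), against 6, 9, 7, 6, 7, 6, 9, 4 and 7 without it. The block added the 7 calls given in the report, lost none, and changed no other call of the 10 genes. For the alternatives, here and elsewhere, the share of all genes called is not given. A change in these counts is therefore not read as particular to the 10 genes or the pathway genes.

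With 1 replicate left out, the lone library was assumed to vary like the other classes. The calls among the 10 genes were then 6, 7 to 8, 4 to 6, 6, 6 to 8, 6, 7 to 8, 3 to 4 and 6 to 7 in the same order. Those among the 43 pathway genes were 20 to 21, 19 to 20, 11 to 12, 13 to 14, 9 to 10, 5 to 6, 16 to 17, 3 to 5 and 12 to 13.

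Pathway calls also moved by over 1.5 times elsewhere. Between newborn neurons and IPCs they were 19 with cells holding cycling marker UMIs left out (29 in the main test). Between deep-layer and newborn neurons they were 27 in Leiden clusters (17). DESeq2 gave 9 between deep and upper-layer neurons (14), 4 between L5-gated and L6-gated neurons (9), 15 between interneurons and newborn neurons (23) and 3 between MGE and CGE interneurons (8). L5-gated and L6-gated neurons gave 16 with the replicate block and 4 with doubled gate limits, chosen after seeing the data. MGE and CGE interneurons gave 4 under the stricter cell filter and 4 with cells holding cycling marker UMIs left out. Depth limits Unc5b most, with 963 UMIs in kept cells.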
